A study of Sus scrofa with 6 samples.

Results

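The myosin heavy chain isoforms MYH7, MYH2, MYH1, MYH4 and MYH3 were followed in 2 porcine skeletal muscles, longissimus dorsi (LDM) and psoas major (PMM), with 3 one-colour Agilent arrays for each muscle. A probe counted as a member when the name in the array files was 1 of these 5 symbols, when its description gave the symbol in brackets, or when the description spoke of a myosin heavy chain and stated a skeletal isoform. Of 43603 probes, 11 met this rule: 2 for MYH7, 1 for MYH2, 5 for MYH1 and 3 for MYH4. No probe was matched to MYH3, the embryonic isoform. The tissue came from 3 female Landrace pigs slaughtered at 210 days of age, with no treatment other than fasting before slaughter, and the study set LDM as the glycolytic muscle against PMM as the oxidative one. The labels number the arrays 1 to 3 in each muscle but do not tie a number to a pig, so p-values measure the spread between these arrays. With the replicate number as a block, and in sign flips, they measure the spread of the differences between same-numbered arrays.

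The heavy chain is the motor of the thick filament: its head splits ATP and pulls on actin, and the isoform that a fibre makes sets how fast that fibre shortens. In adult pig muscle, MYH7 marks slow oxidative type I fibres, MYH2 fast oxidative type IIa fibres, MYH1 the intermediate type IIx fibres and MYH4 the fast glycolytic type IIb fibres. MYH4, MYH1 and MYH2 lie next to each other, in that order, in the RefSeq table of the Sscrofa11.1 assembly, and MYH7 lies on another chromosome.

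The sequences of the probes decide which isoforms each one can tell apart. Every probe is a 60-mer and is named here by its isoform and by the first base that the files give for it in the transcript. By the transcripts that the files list, 8 of the 11 probes belonged to 1 isoform only, 1 (MYH1 at 5806) was listed for both MYH1 and MYH4, and 2 (MYH1 at 247 and at 5292) were listed for MYH1, MYH2 and MYH4. The following probes are shown because a MYH1 and a MYH4 probe cover the same stretch of the molecule. Capitals mark the shared stretch, aligned without gaps.
MYH1 at 5806: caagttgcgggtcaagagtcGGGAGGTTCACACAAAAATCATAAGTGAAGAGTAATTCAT
MYH4 at 5832: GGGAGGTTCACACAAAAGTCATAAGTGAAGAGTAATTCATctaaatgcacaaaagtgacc
MYH1 at 5679: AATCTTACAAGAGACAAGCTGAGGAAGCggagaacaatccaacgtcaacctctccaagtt
MYH4 at 5652: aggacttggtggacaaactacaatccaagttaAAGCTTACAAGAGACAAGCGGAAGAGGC
The first pair shared 39 of 40 bases, with the difference A38G (the MYH1 base first, counted from 1 at the 5′ end of the MYH1 probe). The second pair shared 24 of 28 bases, with T3G, T20G, G23A and A26G counted in the same way. The MYH1 probe at 5662 holds the same 28 bases as MYH1 at 5679 inside its sequence, so it too shares 24 of 28 with MYH4 at 5652. How far the transcript of one isoform also bound the probe of the other was not tested. The next pair of probes, listed for 1 isoform each, is shown because it gave the largest difference between the muscles in each direction.
MYH7 at 5242: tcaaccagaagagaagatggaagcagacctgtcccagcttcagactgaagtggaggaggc
MYH4 at 2604: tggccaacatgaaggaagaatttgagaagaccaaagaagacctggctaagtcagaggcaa

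Each of the 11 probes cleared the background well on every one of the 6 arrays, and all 11 entered the test. Values are log2 processed intensities from which each array's 75th percentile was subtracted, so 0 is the level of that percentile, which lay between 593 and 881 intensity units. No probe's level is set against that of another probe, since 2 probes need not bind alike. In both muscles, all 11 probes were highest on the replicate 1 array. The 6 arrays fell on 3 scan days that coincide with the replicate numbers, and the 2 muscles shared a slide for replicate 2 and for replicate 3, whereas each replicate 1 array lay on another slide. Each difference is therefore also given for the 3 pairs of arrays with the same number, which are the values within a scan day.

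**Figure D1:**
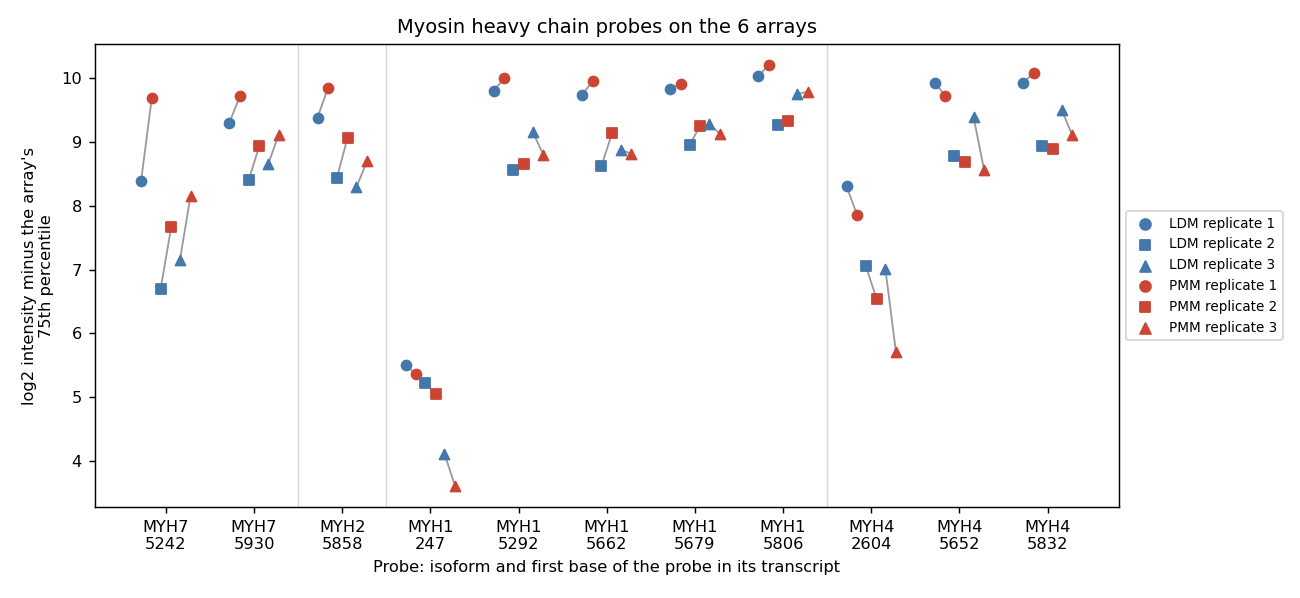
Normalized intensity (log2, relative to the 75th percentile of the array) of the 11 myosin heavy chain probes on the 6 arrays, LDM in blue and PMM in red, with grey lines joining arrays of the same replicate number. The replicate 1 arrays (circles) are the highest of each muscle for all 11 probes, and the lines rise from LDM to PMM for both MYH7 probes and MYH2 and fall for the MYH4 probes at 2604 and 5652.

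MYH7, the slow isoform, was higher in PMM in all 3 pairs of arrays on both of its probes, but the arrays of the muscles overlapped. The MYH7 probe at 5242 measured 8.39, 6.69 and 7.15 on the LDM arrays (replicates 1 to 3 in order, here and throughout) and 9.69, 7.66 and 8.16 on the PMM arrays. Each PMM array was above the LDM array of its own number, while LDM replicate 1 exceeded PMM replicates 2 and 3. The mean difference was 1.09 (95% interval -0.31 to 2.48 from limma), that is 2.12-fold, and the 3 pairs differed by 1.29, 0.97 and 1.0. This interval and those given for the probes below come from the fit without the replicate number as a block. The MYH7 probe at 5930 measured 9.30, 8.40 and 8.65 in LDM and 9.72, 8.94 and 9.11 in PMM, again with LDM replicate 1 inside the range of PMM. Its difference was 0.47 (-0.36 to 1.31), with 0.42, 0.54 and 0.47 in the pairs. The direction held on both probes but the size was not the same. In bulk muscle, a different share of slow fibres and a different amount of MYH7 RNA per fibre cannot be told apart, and this holds for every isoform below.

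MYH2, the fast oxidative isoform, was also higher in PMM in all 3 pairs. Its only probe, at 5858, was printed in 5 spots on each array, which varied by an SD of 0.03 to 0.10 within an array. It measured 9.38, 8.44 and 8.29 in LDM and 9.85, 9.06 and 8.69 in PMM. LDM replicate 1 was above PMM replicates 2 and 3, so the muscles overlapped. The difference was 0.50 (-0.48 to 1.48), or 1.42-fold, and the pairs differed by 0.47, 0.63 and 0.41.

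MYH1, the type IIx isoform, showed no common direction. Of its 5 probes, 3 were higher and 2 lower in PMM on average, with differences from -0.27 to 0.22, and the sign of each of the 5 changed under at least 1 other setting or left-out array. The brightest MYH1 probe listed for this isoform alone, at 5679, measured 9.83, 8.95 and 9.29 in LDM and 9.91, 9.25 and 9.13 in PMM. PMM was above LDM in replicates 1 and 2 and below it in replicate 3, and the difference was 0.08 (-0.75 to 0.91). The MYH1 probe at 5662, which covers much of the same stretch, differed by 0.22 (-0.75 to 1.20). The probe at 5806, whose listing also names MYH4, differed by 0.09 (-0.72 to 0.91). Of the probes listed for 3 isoforms, the one at 247 differed by -0.27 (-1.52 to 0.98), lower in PMM in all 3 pairs, and the one at 5292 by -0.02 (-1.10 to 1.05).

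MYH4, the fast glycolytic isoform, was lower in PMM on average on its 3 probes, by an amount that differed from probe to probe. The MYH4 probe at 2604 measured 8.30, 7.05 and 7.01 in LDM and 7.85, 6.54 and 5.70 in PMM. Each PMM array was below the LDM array of its number, but PMM replicate 1 exceeded LDM replicates 2 and 3. The difference was -0.76 (-2.10 to 0.59), which is 1.69-fold lower, and the pairs gave -0.45, -0.51 and -1.31. The MYH4 probe at 5652 measured 9.93, 8.78 and 9.39 in LDM and 9.72, 8.68 and 8.56 in PMM, a difference of -0.38 (-1.38 to 0.62) that was negative in all 3 pairs. The probe at 5832, whose sequence shares 39 bases with a MYH1 probe, measured 9.92, 8.93 and 9.50 in LDM and 10.08, 8.89 and 9.10 in PMM. It was higher in PMM in replicate 1 and lower in the other two, with a difference of -0.09 (-1.05 to 0.86) whose sign turned in 5 of 25 other settings.

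None of these differences passed the test. With limma over 25835 probes, 0 of 11 member probes were called at an adjusted p under 0.05, where 0% of all probes were called, and 0 of 11 had an unadjusted p under 0.05, against 2.67% of all probes. The lowest adjusted p among the members was 0.999976. With the replicate number as a block in limma, the members still gave 0 calls (lowest adjusted p 0.183, against 0.0619% of all probes called). In that fit, 4 of 11 had an unadjusted p under 0.05, both MYH7 probes and MYH2 higher in PMM and the MYH4 probe at 2604 lower, where 11.3% of all probes had one. The arrays of the muscles overlapped for all 11 probes, whereas 5.94% of all probes did not overlap. By pairs, 4 of 11 members were higher in PMM in 3 of 3 pairs (17.3% of all probes) and 3 of 11 lower (19% of all probes). Exact permutation of the 6 arrays cannot give a p below 0.1 for a single probe, and for the members it gave 0.3 to 1.

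**Figure D2:**
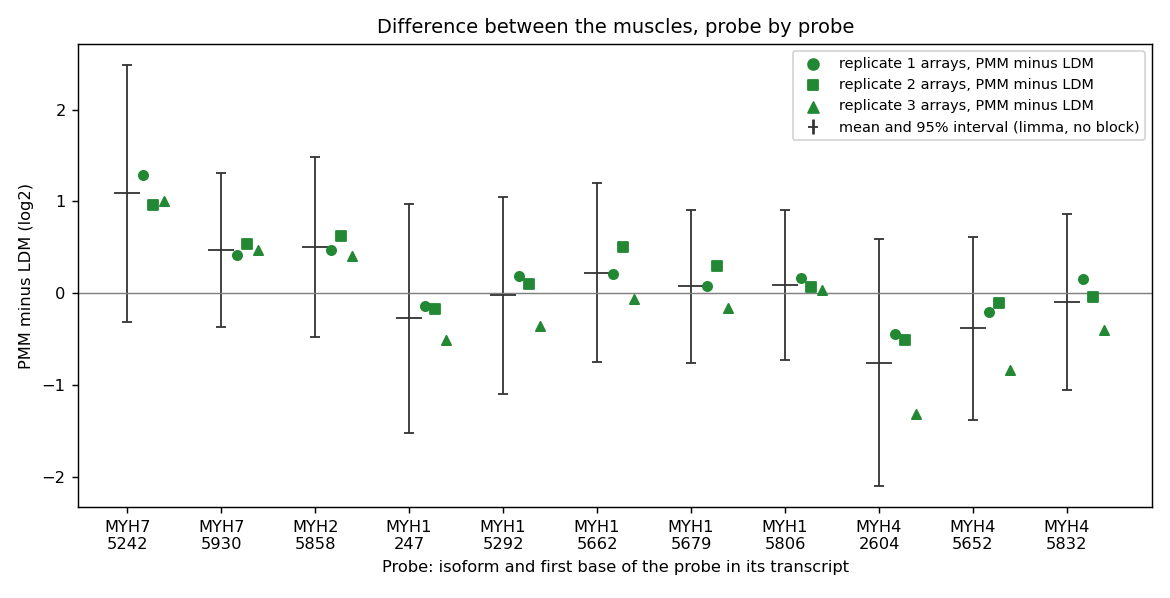
PMM minus LDM (log2) for each myosin heavy chain probe, with the mean and its 95% interval from limma without a block in black and the 3 same-numbered pairs of arrays in green. All 11 intervals include 0, and the pairs lie on one side of 0 for MYH7, MYH2, the MYH1 probes at 247 and 5806 and the MYH4 probes at 2604 and 5652.

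A ratio of 2 isoforms within an array leaves out the scaling of that array. For each isoform, the brightest probe listed for that isoform alone was used: MYH7 at 5930, MYH2 at 5858, MYH1 at 5679 and MYH4 at 5832. Only the change of a ratio between the muscles is read, not its level. Of the 6 ratios, 4 had no overlap between the muscles and were higher in PMM, namely MYH7 and MYH2 each over MYH4 and over MYH1. Over all pairs of named genes on the array, 9.71% of ratios did not overlap in either direction. The 6 ratios reuse 4 probes and are not independent of each other.

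The log2 ratio of MYH7 to MYH4, the slow to the fast glycolytic isoform, was -0.62, -0.53 and -0.85 in LDM and -0.36, 0.04 and 0.01 in PMM. Every PMM array was above every LDM array. The ratio was 0.56 higher in PMM, or 1.48-fold, and the pairs differed by 0.26, 0.57 and 0.86 (SD 0.30, n = 3; exact two-sided permutation p = 0.1, adjusted over the 6 ratios p = 0.15). The size depended on the MYH4 probe. The one at 5832 had 18 of 57 pixels saturated in LDM replicate 1. Leaving out spots with saturated pixels puts MYH4 at 2604 in its place on all arrays, and the ratio was then 1.23 higher (2.34-fold). With that probe the pairs differed by 0.86, 1.05 and 1.77, although neither MYH4 probe had saturated pixels in replicates 2 and 3. The part of saturation in this change was not tested.

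The ratio of MYH2 to MYH4, the oxidative to the glycolytic isoform of the fast fibres, was -0.54, -0.50 and -1.21 in LDM and -0.23, 0.17 and -0.41 in PMM. The lowest PMM array, replicate 3, was just above the highest LDM array, replicate 2. The difference was 0.59, or 1.51-fold, with 0.31, 0.67 and 0.80 in the pairs (SD 0.25, n = 3; exact permutation p = 0.1, adjusted p = 0.15). Without spots with saturated pixels, and so with MYH4 at 2604, it was 1.26 (2.40-fold).

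Against MYH1, the main probes of the same 2 isoforms gave smaller changes. The ratio of MYH7 to MYH1 was -0.53, -0.55 and -0.64 in LDM and -0.20, -0.31 and -0.01 in PMM, a difference of 0.40 (pair SD 0.20, n = 3, exact permutation p = 0.1). The ratio of MYH2 to MYH1 was -0.45, -0.51 and -1.0 in LDM and -0.06, -0.19 and -0.44 in PMM, a difference of 0.43 (pair SD 0.12, n = 3; exact permutation p = 0.1). In both ratios the arrays of the muscles did not overlap. The MYH1 probe at 5679 had saturated pixels on both replicate 1 arrays, and with MYH1 at 5662, which had none, the difference for MYH7 over MYH1 was 0.25 with overlap between the muscles (exact permutation p = 0.3), while that for MYH2 over MYH1 was 0.28 without overlap.

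The oxidative isoforms MYH7 and MYH2 did not separate from each other on these probes. Their ratio was -0.08, -0.03 and 0.36 in LDM and -0.13, -0.13 and 0.42 in PMM, with a difference of -0.03 (pair SD 0.08, n = 3; exact permutation p = 0.8). With the other MYH7 probe, at 5242, the same ratio was 0.59 higher in PMM and positive in all 3 pairs, so its sign depended on the probe. The ratio of MYH1 to MYH4 was higher in PMM in 2 of 3 pairs, by 0.17 on average, and overlapped (exact permutation p = 0.4). Without spots with saturated pixels, and so with MYH1 at 5662 over MYH4 at 2604, it was 0.98 higher, with no overlap. With only the MYH4 probe exchanged it was 0.83 higher, and with only the MYH1 probe exchanged 0.31 higher, both with overlap. Exact sign flips over the 3 pairs, which cannot go below 0.25, gave 0.25 for the 4 ratios without overlap.

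All combinations of the 8 probes listed for 1 isoform alone gave 23 ratios. Of these, 15 had no overlap and were higher in PMM, 0 had no overlap and were lower, and 21 were higher in PMM in all 3 pairs. Over all pairs of named genes, each read from 1 probe, 9.71% of ratios did not overlap in either direction. The share of such ratios higher in all 3 pairs was not counted. The 23 ratios reuse the same 8 probes, so they are not independent of each other and do not add up as separate evidence. MYH7 over MYH4 had no overlap in 6 of 6 combinations, with differences from 0.56 to 1.84 (1.48-fold to 3.59-fold). MYH2 over MYH4 had none in 3 of 3, with 0.59 to 1.26. MYH2 over MYH1 had none in 2 of 2 (0.28 to 0.43), MYH1 over MYH4 in 3 of 6 (0.17 to 0.98) and MYH7 over MYH1 in 1 of 4 (0.25 to 1.01). The largest change came from the probes for MYH7 at 5242 and MYH4 at 2604. Their log2 ratio was 0.09, -0.36 and 0.14 in LDM and 1.83, 1.12 and 2.45 in PMM.

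**Figure D3:**
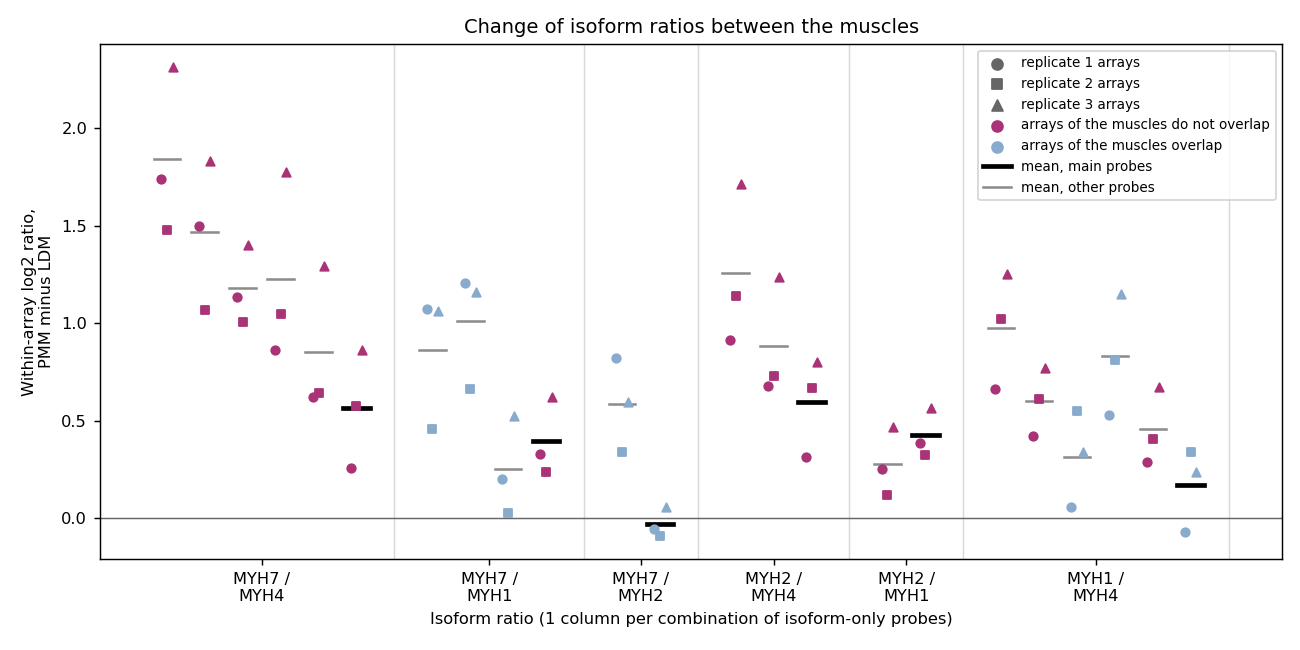
Change of the within-array log2 ratio from LDM to PMM for every combination of probes listed for 1 isoform alone, with the 3 same-numbered pairs of arrays as points and their mean as a bar (black for the main probes). The ratios of MYH7 and of MYH2 to MYH4 lie above 0 in every pair and every combination, and the ratio of MYH7 to MYH2 lies near 0 with the main probes and above 0 with the other MYH7 probe.

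Some heavy chain spots came close to the brightest signal that the scanner could read, mainly on the replicate 1 arrays. No member spot was marked as saturated, but 5 of the 11 probes had saturated pixels, all 5 on replicate 1 arrays only. The mean signal reached 99.8% of the saturation value on the replicate 1 arrays and at most 85.6% on the others. MYH1 at 5806 had 39 of 49 pixels saturated in LDM replicate 1 and 33 of 56 in PMM replicate 1, and MYH1 at 5679 had 35 of 54 and 15 of 61. MYH4 at 5832 had 18 of 57 in LDM replicate 1 and 0 of 55 in PMM replicate 1. The probes with the largest differences were dimmer: MYH7 at 5242 lay between 14.6% and 79.7% of saturation and MYH4 at 2604 between 5.50% and 33.7%. The dimmest member, MYH1 at 247, lay between 1.38% and 5.54% and differed by only -0.27. The ratios given above without spots with saturated pixels used, for each isoform, the brightest remaining probe with values on all arrays: MYH7 at 5930, MYH2 at 5858, MYH1 at 5662 and MYH4 at 2604.

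**Figure D4:**
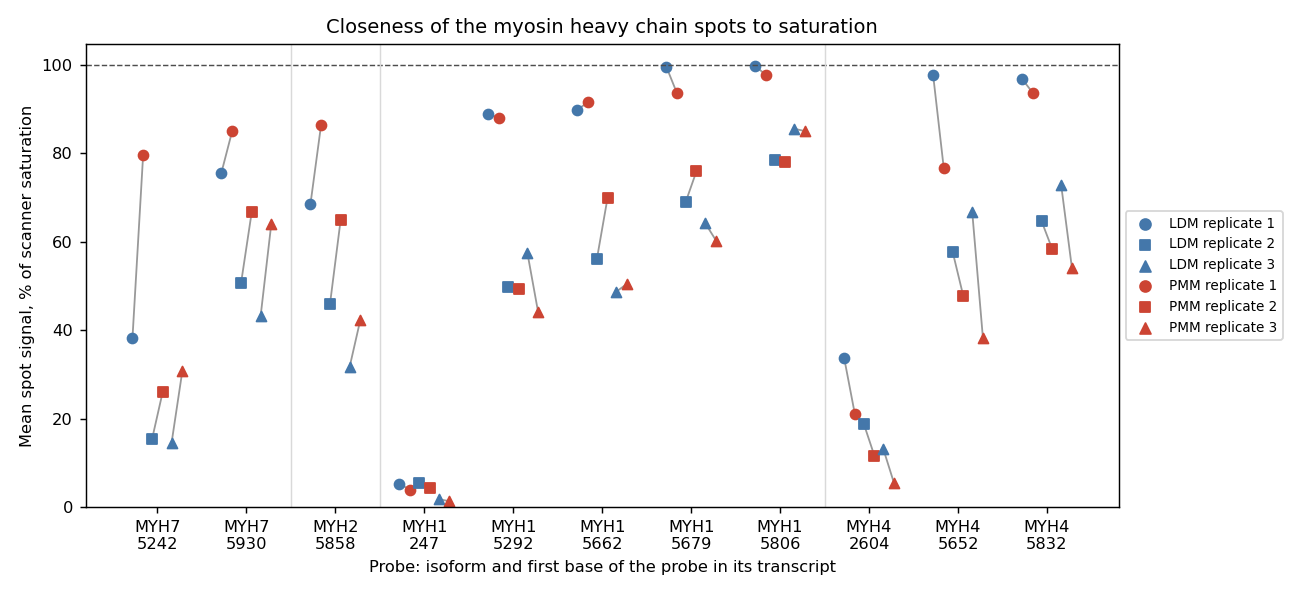
Mean spot signal of each myosin heavy chain probe as a percent of the scanner's saturation value (dashed line at 100) on the 6 arrays, LDM in blue and PMM in red, with lines joining same-numbered arrays. The replicate 1 arrays (circles) reach 99.8%, and the MYH7 probe at 5242, the MYH4 probe at 2604 and the MYH1 probe at 247 leave the most room.

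Each heavy chain works with light chains, troponins and a calcium pump of its own fibre type, and these partners were read from 1 probe per gene, over 2859 genes. Of 10 slow fibre partners, 7 were tested, and all 7 were higher in PMM in 3 of 3 pairs (21.2% of all genes), with a median difference of 0.62 against -0.004 over all genes. Without the block limma called 0 of them, as it called 0% of all genes, of which 3.74% had an unadjusted p under 0.05. With the block it called 3 of 7 higher in PMM, where 3.92% of all genes were called higher and 2.31% lower. These calls depended on the scaling: after quantile normalization the same block called 0 of the 2859 genes, so each call with the block given here and below was lost. They also came from another test than that of the member probes above, which ran over 25835 probes, where the block called 0.0619%. Whether the partners passed over all probes is not given here. In the fit over genes, the block called 0 of the 4 members (adjusted p 0.140 for MYH2 and 0.162 for MYH7, limma). TNNI1, the inhibitory troponin of slow fibres, was 1.04 higher in PMM (adjusted p = 0.0126 with the block in limma), with 7.25, 7.21 and 7.40 in LDM and 8.91, 7.79 and 8.29 in PMM. MYOZ2, a Z-disc protein of slow fibres, was 1.03 higher (adjusted p = 0.0118, limma with the block), and TPM3, the slow tropomyosin, 0.94 higher (adjusted p = 0.0141), although its 4 tested probes ranged from 0.12 to 0.94.

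Of 12 fast fibre partners, 9 were tested, 6 higher and 3 lower in PMM, with a median of 0.06 and 0 calls with or without the block. By 1 probe per gene, the largest differences were 0.41 for TNNT3, the fast troponin that binds tropomyosin, and -0.29 for CASQ1, the calcium store protein of fast fibres. PVALB, a calcium buffer of fast fibres, differed by 0.14, with pairs from -0.94 to 0.89. TPM1 counted as higher by its brightest probe (0.06), but its 5 tested probes ranged from -0.56 to 0.06.

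**Figure D5:**
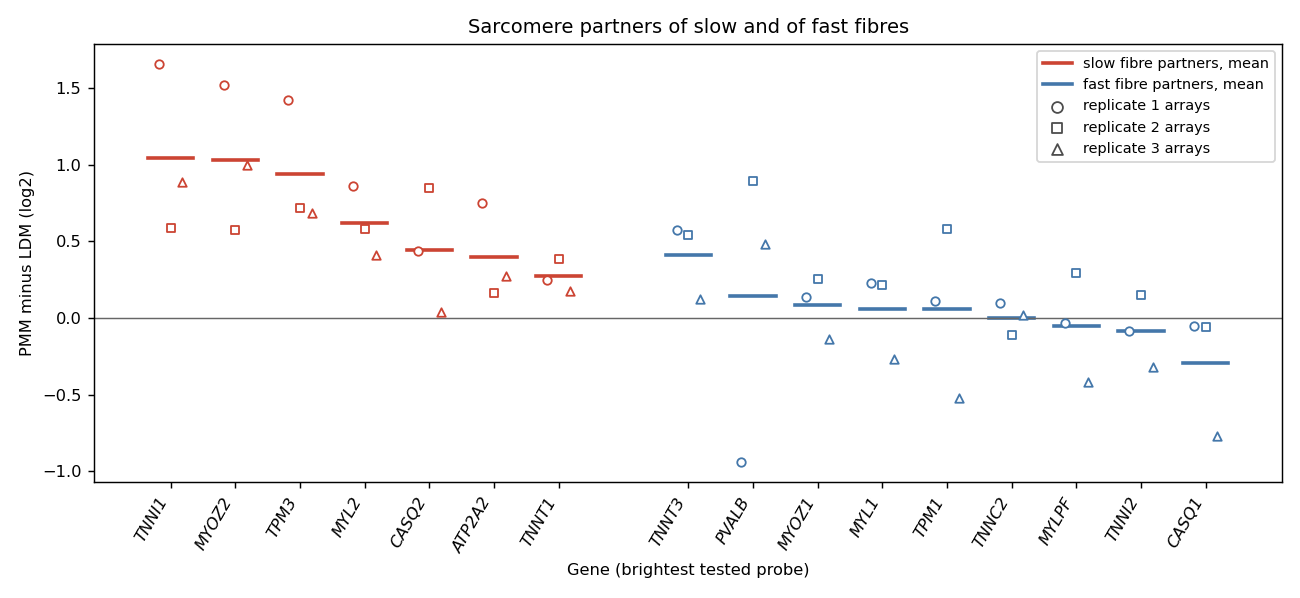
PMM minus LDM (log2) for the tested sarcomere partners of slow fibres (red) and fast fibres (blue), 1 probe per gene, with the 3 same-numbered pairs of arrays as open symbols and their mean as a bar. All 7 slow partners lie above 0 in every pair, and the 9 fast partners lie on both sides of 0.

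Of 11 genes of thick filament assembly and turnover, 3 were tested and 0 called: UNC45B, a chaperone that folds the myosin head, differed by 0.24, TTN by 0.15 and HSP90AA1 by 0.15. Of 21 regulators of fibre type, 11 were tested, 6 higher and 5 lower, with a median of 0.08. PPARGC1A, a coactivator that drives slow and oxidative genes, was 0.90 higher in PMM and was the only one of these called with the block (adjusted p = 0.0141, limma). MEF2A, a transcription factor of muscle genes, differed by -0.56 (adjusted p = 0.0933 with the block, limma) and PROX1, a factor active in slow fibres, by 0.45 (adjusted p = 0.236). None of the 10 other myosin heavy chain genes listed (among them MYH6, MYH8 and MYH11) had a named probe here.

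Over the 6 arrays, the genes whose pattern was most like that of an isoform were, by Pearson's r among 2736 genes, SIRT3 (0.98), AKR1B1 (0.97) and ITGB1BP2 (0.97) for MYH7, and ACTN2, PPP1R3C and OXNAD1 (0.99 each) for MYH2. For MYH1 they were CA3, PRKRA and MID2 (0.99 each), and for MYH4 SIRT2 (0.997), INTS14 (0.996) and LAMP1 (0.995). MYH7 had 50 genes over 0.9 and MYH4 145. These are descriptions over 6 points that share the height of the replicate 1 arrays. The main probes of the isoforms also correlated with each other, for example MYH1 with MYH4 at 0.93 and MYH7 with MYH4 at 0.74. Between all member probes, r went from 0.06 to 0.99.

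Markers of the tissue were checked because the extraction text in the labels names adipose tissue, while the tissue labels name muscle. The 5 skeletal muscle markers (ACTA1, CKM, DES, MB and TTN) all cleared the background on each array, and their summed level overlapped between the muscles (1752 to 2790 times the 75th percentile in LDM, 2154 to 3264 in PMM). One of them, MB, the oxygen-binding myoglobin, was 1.48 higher in PMM without overlap (adjusted p = 0.00616 with the block in limma). All 6 adipocyte markers were tested too, with sums of 77.5 to 238 in LDM and 82.5 to 256 in PMM. FABP4 was the brightest of them on every array (mean 6.95 in LDM and 7.06 in PMM) and weighs most in these sums. Of the 6, FABP4 and LPL were higher in PMM in 3 of 3 pairs (21.2% of all genes). PLIN1, ADIPOQ and CIDEC were lower in 3 of 3 pairs (21.1% of all genes). With the block, limma called PLIN1 and CIDEC lower (-1.02 and -0.85) and LPL higher (1.12) in PMM. PLIN1 was well above background on only 5 of the 6 arrays. Its lowest value was -5.50 on PMM replicate 1, and its pairs differed by -1.79, -0.63 and -0.64. The 4 tested of 5 fibroblast markers were all lower in PMM in 3 of 3 pairs (21.1% of all genes were; sums of 97.7 to 220 in LDM and 71.3 to 154 in PMM), and COL1A1 and COL1A2 were called with the block (both -0.83). Of the other lists, 4 of 4 endothelial, 2 of 4 macrophage, 1 of 4 smooth muscle, 1 of 5 immature fibre and 0 of 2 erythrocyte markers were tested, and with the block 0 of these were called. The part of other cell types in the isoform differences was not tested.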

How the data were processed

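RNA of 3 LDM and 3 PMM samples was hybridised to one-colour (Cy3) arrays. The authors deposited linear spot intensity values made by the scanner program Agilent Feature Extraction 10.5.1.1. These are corrected for background and spatial trends within an array and are not normalized between arrays. The study's text names the MultiExperiment Viewer for differential expression and a mapping of probes to the pig genome, neither of which was repeated here; the normalization and test are not given in the sources used here. From the deposited intensities, control and outlier spots were left out, each array's 75th percentile was subtracted from the log2 processed signals, and spots of a probe were averaged. A probe was tested when in either muscle at least 50% of its spots were well above background on each of the 3 arrays and at least 2 values per muscle remained; this rule for probes with several spots was chosen after the data were seen, because it gave the same number of tested probes as an earlier analysis of these data. The value table of the series, which holds the same intensities, served as an alternative.

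The muscles were compared in R 4.3.3 by limma 3.58.1 (eBayes, two-sided, threshold 0.05 after Benjamini-Hochberg adjustment over 25835 probes or 2859 genes), and isoform ratios by exact permutation. The test was checked on simulated data. Gene names came from RefSeq accessions or gene numbers found in the Sscrofa11.1 table and otherwise from the files, giving 3473 genes, each read from its brightest tested probe; other RefSeq accessions in the files were added to the naming after a first look at the members. The array's genome build is not given in the sources used here, so no coordinates are printed. The deviations of same-numbered arrays from the mean of their muscle correlated at 0.62, 0.70 and 0.56, all above 0.1, so arrays of the same number were treated as pairs, and results of limma with this number as a blocking factor are given where a count moved.

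The members and the gene lists were chosen with earlier results of these data known. Named besides the members were up to 3 genes of each pathway list with the largest absolute difference and the 3 genes most correlated with each isoform. TPM1 was named for the range of its probes. Columns of other samples used: 0. The number of arrays limits the precision. One probe described as a myosin heavy chain with no isoform stated was not a member.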

Additional observations from a re-analysis of the deposited data

How the results depend on the processing

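The count of called member probes stayed at 0 under all 25 alternatives. Over all probes, limma called 0 as processed, 7 after quantile normalization, 9 after median centring, 1 with normexp, 16 with the replicate block, 322 with slide as a random block, 224 with the replicate block without replicate 1, 0 with it without replicate 2, without replicate 3 or after quantile normalization, and 0 to 1 when each array was left out. Over genes it called 0 as processed, 178 with the replicate block, 177 with slide as a block, 102 and 130 with the replicate block without replicate 1 and without replicate 2, 0 with it without replicate 3 or after quantile normalization, and 0 when each array was left out. The replicate block changed no call of a member. Leaving out 1 array leaves a muscle with 2 arrays. In addition, 20 ways of treating probes with several spots were tried after the data were seen: each called 0 probes without the block (lowest adjusted p 0.0502 to 0.0513) and 16 with it. Median centring and the other scalings moved the median of all probes by less than 0.1, except normexp, where it was 0.11 against -0.03 as processed.

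Both MYH7 probes, MYH2 and the MYH4 probes at 2604 and 5652 kept their direction under all 25 alternatives, as did TNNI1, MYOZ2, TPM3, TNNT3, PPARGC1A, MEF2A and PROX1 under 26. TNNI1, MYOZ2, TPM3 and PPARGC1A were called with the replicate block and with slide as a block, and MEF2A with slide as a block only. With the replicate block after quantile normalization, none of these passed (adjusted p 0.165, 0.154, 0.124 and 0.091 for TNNI1, MYOZ2, TPM3 and PPARGC1A). All 4 were also lost with the block without replicate 1 (0.0709 to 0.0976) and without replicate 3 (0.210 to 0.218), and TPM3 and PPARGC1A without replicate 2 (0.0671 and 0.0641). Small differences changed sign, and the cause was not tested. With quantile normalization, with or without the replicate block, MYH1 at 5679 gave -0.0079 and MYH1 at 5806, the brightest MYH1 probe, -0.0056. With normexp the values were -0.087 and -0.089, -0.015 for PVALB and -0.0080 for HSP90AA1. MYH1 at 5292 was 0.0019 with the percentile over probes detected on all arrays. MYH4 at 5832, the brightest MYH4 probe, was 0.15 without spots with saturated pixels, which leaves out its LDM replicate 1 value. With the replicate block, MYH1 at 5679 was -0.036 and PVALB -0.23 without replicate 2, and without replicate 3 MYH1 at 5292 was 0.15, MYH4 at 5832 0.059, PVALB -0.023 and TTN -0.086.

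Leaving out each array in turn gave -0.69 to 0.26 for MYH1 at 247, -0.44 to 0.29 at 5292, -0.10 to 0.55 at 5662, -0.16 to 0.31 at 5679 and -0.12 to 0.31 at 5806, and -0.45 to 0.14 for MYH4 at 5832. For CASQ1 it gave -0.85 to 0.14, for PVALB -0.25 to 0.74, for UNC45B -0.14 to 0.60, for TTN -0.26 to 0.38 and for HSP90AA1 -0.15 to 0.39. The change of MYH7 over MYH2 turned to 0.28 with the mean of all probes and ranged from -0.21 to 0.11 when arrays or replicate numbers were left out. The other 5 ratios kept their direction in 16 alternatives, and MYH7 over MYH4 ranged from 0.42 to 1.23. The saturation settings, the probe combinations and the left-out replicate numbers were chosen after seeing the data. With 3 arrays per muscle, only large differences can pass, and signals near saturation limit the brightest probes.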

Other observations

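Another 3 probes were related to myosin heavy chains by their descriptions but were not members, and were looked at after the members' values were seen. The probe A_72_P245752, named MYHC with no isoform stated, was well above the background on 3 of 6 arrays and was not tested. The probe A_72_P026446, described as like dog myosin-2 and listed with a contig that the MYH2 probe also carries, measured 5.40, 4.53 and 3.71 on the LDM arrays and 6.53, 5.48 and 4.39 on the PMM arrays, in the order of the replicate numbers. It was higher in PMM in all 3 pairs, by 1.12, 0.95 and 0.68, with overlap between the muscles, and its mean difference was 0.92 against 0.50 for the MYH2 probe. The probe A_72_P304369, described as like mouse myosin-8, differed by 0.16 with pairs from -0.46 to 0.68. Neither was called by limma (adjusted p with the replicate block 0.21 and 0.849).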
